A study of Homo sapiens with 36 samples.

Results

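The 6 long noncoding RNA (lncRNA) genes MIR210HG, NEAT1, MALAT1, H19, LUCAT1 and HOTAIR, which are linked with hypoxia, were examined for binding of hypoxia-inducible factors (HIF) in a human renal carcinoma line. A peak was taken as a member when its summit lay in the GENCODE gene body or within 20 kb on either side, and peaks of different libraries that overlapped by at least 1 bp were joined into a region when at least 2 libraries called one. This gave 29 of the 25783 regions of the series: 5 at MIR210HG, 4 at NEAT1, 10 at MALAT1, 8 at LUCAT1, 2 at HOTAIR and 0 at H19. The 6 genes are a choice out of 18866 annotated lncRNA genes. The lists of the tagged lines held 332 peaks at these genes out of 203068, and those of the untagged line held 12 out of 10643.

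The study asked which portion of a HIF-α protein, the DNA-binding and dimerization portion (DBD) or the intrinsically disordered portion (IDR), sets where it binds. Binding was mapped by Cut&Run, in which an antibody directs a nuclease to cut the DNA around its target, in 786-O cells, a clear cell renal carcinoma line that has lost VHL and makes no functional HIF-1α, which leaves HIF-2α stable without hypoxia. An anti-V5 and an IgG library were made in each of 3 replicates of 6 lines. The labels do not say whether replicates were separate cultures, so the p-values measure the spread between these libraries, which may be technical.

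WT cells carried no tag. HIF-2a KIN cells were a single homozygous clone with V5 and HaloTag added to the endogenous HIF-2α. The other lines were WT 786-O cells that stably expressed a V5-Halo protein from the weak L30 promoter, and they still held their own untagged HIF-2α: HIF-2a and HIF-1a (the intact proteins), HIF-2a/1a (the DBD of HIF-2α with the IDR of HIF-1α) and HIF-1a/2a (the reverse). The labels name no drug or low-oxygen treatment for any group. The lists hold peaks and no expression, so the cell line was not checked against marker genes, and binding near a gene is not a measure of its RNA.

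HIF-α proteins pair with HIF-1β, and the pair reads a short DNA core, the hypoxia response element (HRE), in promoters and enhancers. MIR210HG is the host transcript of miR-210, a microRNA long known as a HIF target. NEAT1 builds the nuclear bodies called paraspeckles, MALAT1 is an abundant RNA of nuclear speckles, H19 is an imprinted transcript that hosts miR-675, LUCAT1 was first described in lung cancer and responds to stress, and HOTAIR lies in the HOXC cluster and has been tied to Polycomb silencing.

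The sequences under the summits of the 4 regions called in every tagged library are shown first, because the rest of the account returns to them. Each is 101 bases of hg38, plus strand, centred on the summit of the library in which the region ranked highest, which is used as the region's summit throughout, and capitals mark an HRE core (ACGTG or GCGTG, on either strand). They lie at chr11:568608-568708 (MIR210HG region 2), chr11:65422317-65422417 (NEAT1 region 2), chr11:65455293-65455393 (NEAT1 region 4) and chr5:91280748-91280848 (LUCAT1 region 4).
MIR210HG region 2: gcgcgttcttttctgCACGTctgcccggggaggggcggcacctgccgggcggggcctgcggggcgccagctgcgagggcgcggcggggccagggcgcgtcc
NEAT1 region 2: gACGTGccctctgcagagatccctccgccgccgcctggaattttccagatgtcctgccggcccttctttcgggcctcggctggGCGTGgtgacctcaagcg
NEAT1 region 4: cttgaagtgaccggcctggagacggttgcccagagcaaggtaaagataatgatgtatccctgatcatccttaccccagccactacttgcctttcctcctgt
LUCAT1 region 4: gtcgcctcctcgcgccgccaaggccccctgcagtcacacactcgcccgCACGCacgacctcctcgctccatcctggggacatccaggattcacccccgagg

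The HRE of LUCAT1 region 4 was centred on this summit (0 bp), from HIF-2a/1a replicate 3, while the summits of all libraries that called the region lay between positions 91280789 and 91280889. That of MIR210HG region 2 lay 33 bp to the left of it, and NEAT1 region 2 held cores 47 bp to the left and 35 bp to the right. NEAT1 region 4 held none within 50 bp. Over all 29 regions, 7 held an HRE within 50 bp of the summit (24.1%), the same share as in all regions of the series (24.1%); among all regions called in every tagged and in no WT library the share was 34.1%. The AP-1 motif (TGACTCA or TGAGTCA, on either strand) was within 50 bp of 5 summits (17.2%), against 8.27% of all regions. MALAT1 region 5, upstream of the gene, was among them:
MALAT1 region 5: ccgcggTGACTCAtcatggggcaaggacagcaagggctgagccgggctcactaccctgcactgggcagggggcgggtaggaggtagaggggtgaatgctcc
This sequence lies at chr11:65491999-65492099, and its capitals mark the AP-1 motif. A match of letters in these windows is a description, not evidence of a bound factor.

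The libraries differed widely in how many peaks they gave, which bears on every count below. Lists held 392 to 9508 peaks in WT cells and 3984 to 20808 in the tagged lines, at a sequencing depth of 0.241 to 0.625 fragments per base of genome. Replicate 2 had the longest list in each line. To compare heights between lists, a peak's fold enrichment over local background was ranked within its own list and given as a percentile, where 100 is the top of the list. The number of fragments at a summit was also solved from the deposited fold and p-value, and is given divided by the genome mean of that library ("times the genome mean"). Intervals are not given for these heights, since they are counts of sequenced fragments without molecular identifiers.

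MIR210HG was called just upstream of its start in every tagged library and in no WT library. Region 2 (chr11:567686-570148) had its summit 201 bp upstream of the gene's start, in intergenic sequence. As the union of all peaks it also spans the miR-210 sequences inside the gene body (chr11:565657-568457, minus strand). Peaks that reached these sequences came from HIF-1a replicate 1 and HIF-1a/2a replicates 1 and 3, which covered 637, 373 and 772 bp of the body. HIF-2a/1a replicate 3 covered 41 bp, and in the remaining tagged libraries the peak did not enter the body. The mature miRNA is shown because it is the product for which this host gene is known, with its seed (bases 2 to 8) in capitals, from RefSeq on GRCh38.p14:
hsa-miR-210-3p: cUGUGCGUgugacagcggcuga
Summit height at region 2 was 302, 531 and 391 times the genome mean in HIF-2a KIN replicates 1 to 3, and 382, 444 and 111 times in HIF-2a. It was 444, 512 and 208 times in HIF-2a/1a, 203, 326 and 206 times in HIF-1a, and 312, 366 and 261 times in HIF-1a/2a. The lowest value was that of HIF-2a replicate 3, and the 5 lines overlapped.

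Within its list, MIR210HG region 2 stood between percentile 78.5 and 99.4 in the 15 tagged libraries, with a median of 97.9. The median over all regions called in every tagged library was 89.9. By line the mean percentile was 98.6 ± 0.587 (SD, n = 3) in HIF-2a KIN, 89.1 ± 10.2 in HIF-2a, 98.2 ± 0.323 in HIF-2a/1a, 92.1 ± 7.38 in HIF-1a and 96.4 ± 2.72 in HIF-1a/2a. The promoter of MIR210HG (250 bases before to 50 after the start, RefSeq on GRCh38.p14) held 2 HRE cores; 48.4% of 35116 promoters held at least 1.

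The other 4 regions lay around MIR210HG, and none was called in WT. Region 1, in an exon of RASSF7 6816 bp downstream of the start, was called in 14 tagged libraries at a median percentile of 69.3 (range 33.7 to 96.5); HIF-2a KIN replicate 1 was the library without it. Region 3 lay at -7723 bp from the start of MIR210HG and 290 bp from the start of PHRF1, a ubiquitin ligase gene, and was called in 12 tagged libraries at a median percentile of 50.4 (range 0.561 to 91.8). Regions 4 and 5, in PHRF1 introns, were called in 2 and 10.

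**Figure D1:**
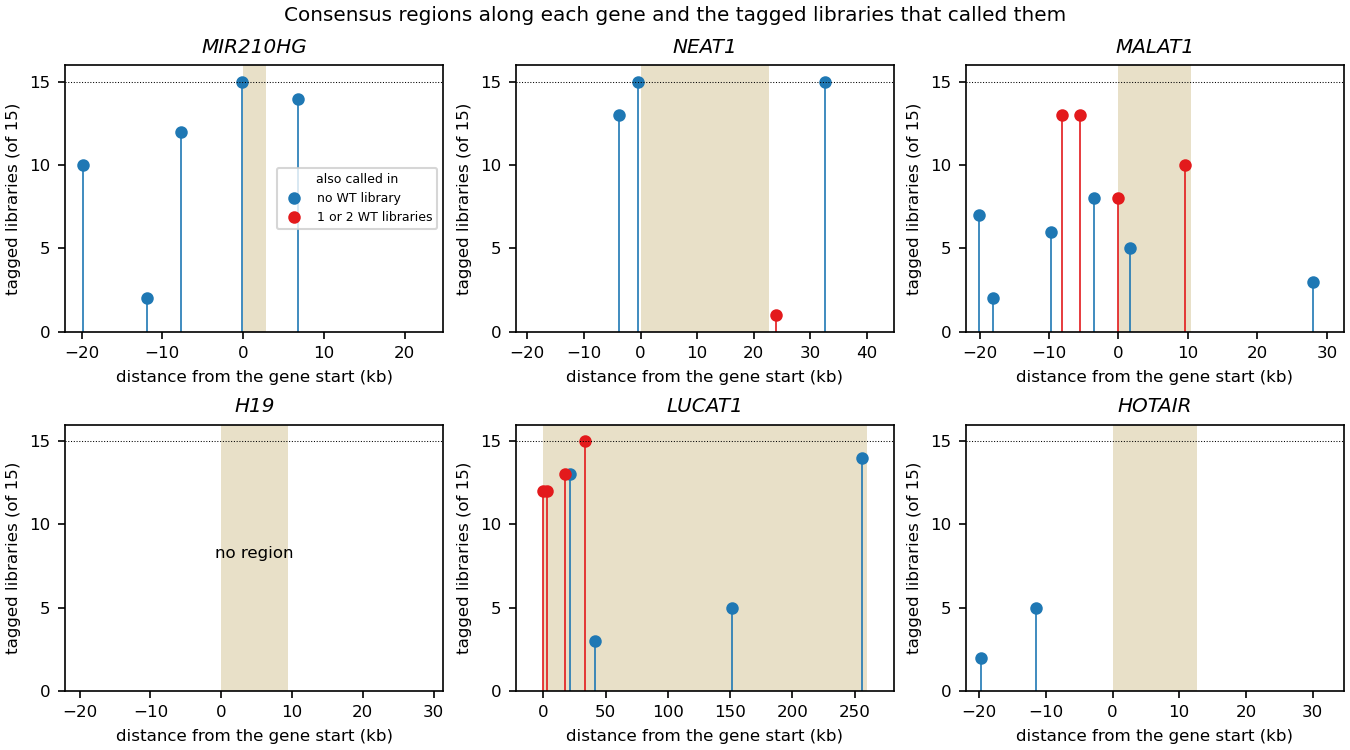
Each panel is one gene; the horizontal axis is the distance of a region's summit from the gene's start in kb, positive in the direction of transcription, and the height of a stem is the number of tagged libraries, of 15, that called it. Shading marks the gene body and red stems were also called in 1 or 2 WT libraries; stems reach 15 at MIR210HG, NEAT1 (2 regions) and LUCAT1, all but the last in no WT library, and H19 has none.

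LUCAT1 held the highest peak of the leading regions in most libraries, deep in the annotated gene rather than at its start. GENCODE gives LUCAT1 a body of 259714 bp (chr5:91054834-91314547, minus strand), whereas RefSeq gives 11417 bp at its 5′ end. Region 4 (chr5:91280006-91282422), 33749 bp downstream of the start, lies in a LUCAT1 intron and in exons of 2 unnamed lncRNA genes, 344 bp from the start of one of them. It falls outside the RefSeq body and its 20 kb flank. With RefSeq bodies, an alternative chosen after seeing the data, 25 regions were left, and LUCAT1 kept regions 5 to 8 alone.

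Region 4 of LUCAT1 reached 325, 1140 and 723 times the genome mean in HIF-2a KIN and 382, 1350 and 498 times in HIF-2a. It reached 655, 1450 and 573 times in HIF-2a/1a, 364, 1030 and 483 times in HIF-1a, and 663, 1810 and 894 times in HIF-1a/2a. Replicate 2 was the highest in each of these lines, and no line was separate from the others. One WT library, replicate 2, also called the region, at 139 times its genome mean and at percentile 97.5 of its list. The lowest tagged library, HIF-2a KIN replicate 1, was higher than this on the same scale (325), but by percentile it was lower (95.5).

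In the tagged lists, LUCAT1 region 4 ranked between percentile 92.7 and 99.8 (median 99.1), and in HIF-2a/1a replicate 3 it was the peak of rank 21 among 12371. Mean percentiles by line lay between 97.1 ± 3.85 (SD, n = 3) in HIF-1a and 99.4 ± 0.407 in HIF-2a/1a. With calls in all 15 tagged libraries and 1 of the 3 WT libraries, the region had an exact Fisher p of 0.0196, which was 0.166 after Benjamini-Hochberg adjustment over all regions.

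The start of LUCAT1 itself was marked less regularly. Region 8 (summit 4 bp from the start) was called in 12 tagged libraries at a median percentile of 52.9 (range 9.52 to 92.8) and in WT replicate 2 at percentile 64.8. Region 7, with an AP-1 motif 32 bp from the summit, was called in 12 tagged libraries (0.477 to 82.7) and in the same WT library. At the far end of the GENCODE body, region 1 (chr5:91058422-91059892, an intron shared with ADGRV1) was called in 14 tagged and no WT libraries at a median percentile of 81.9, and it too had an AP-1 motif. Regions 5 and 6 were called in 13 tagged libraries each at median percentiles of 69.0 and 53.6, region 6 also in WT replicate 2, and regions 2 and 3 were called in 5 and 3.

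NEAT1 was called at its start and again beyond its end, in each case in 15 tagged and no WT libraries. Region 2 (chr11:65421232-65430896) had its summit 407 bp upstream of the start and joined this promoter peak with peaks inside the gene. The peak of highest fold enrichment within it reached 50.3, 185 and 121 times the genome mean in HIF-2a KIN, and 128, 274 and 119 times in HIF-2a. The values were 158, 293 and 143 times in HIF-2a/1a, 97.8, 156 and 149 times in HIF-1a, and 102, 208 and 112 times in HIF-1a/2a. In HIF-1a replicate 1 and HIF-1a/2a replicate 3 this peak's summit lay inside the gene, and the latter library also had a promoter peak at 125 times. The lines overlapped, and the HIF-2a KIN replicate 1 value was the lowest.

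By rank, NEAT1 region 2 varied more than the leading regions of MIR210HG and LUCAT1, from percentile 5.96 in HIF-2a replicate 1 to 94.1 in HIF-2a/1a replicate 1 (median 81.7). Mean percentiles were 62.2 ± 12.2 (SD, n = 3) in HIF-2a KIN, 52.1 ± 40.5 in HIF-2a, 88.2 ± 6.32 in HIF-2a/1a, 86.4 ± 4.62 in HIF-1a and 81.5 ± 14.6 in HIF-1a/2a. Inside the region, summits fell into a pair of recurrent places. In 14 tagged libraries a summit lay 529 to 405 bp upstream of the start, at a median percentile of 78.9, and in 9 tagged libraries one lay 4353 to 4502 bp downstream of it, at a median of 47.6 (range 15.0 to 88.2).

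NEAT1 region 4 (chr11:65454674-65455727) lay 32569 bp downstream of the start, past the end of the gene, in an intron of an unnamed lncRNA gene and 74 bp from the start of the pseudogene FAUP4. It reached 37.0, 120 and 66.4 times the genome mean in HIF-2a KIN, and 58.1, 218 and 67.2 times in HIF-2a. In HIF-2a/1a it reached 51.8, 203 and 71.7 times, in HIF-1a 44.0, 128 and 77.7 times, and in HIF-1a/2a 85.4, 187 and 79.2 times. Replicate 2 was again the highest in every line. Its percentiles ran from 55.1 to 96.5 (median 85.1), so that this downstream region outranked the promoter region in the median. Region 1, at -3791 bp from the start, was called in 13 tagged and no WT libraries at a median percentile of 34.5, and region 3 in HIF-1a/2a replicate 3 and WT replicate 2.

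**Figure D2:**
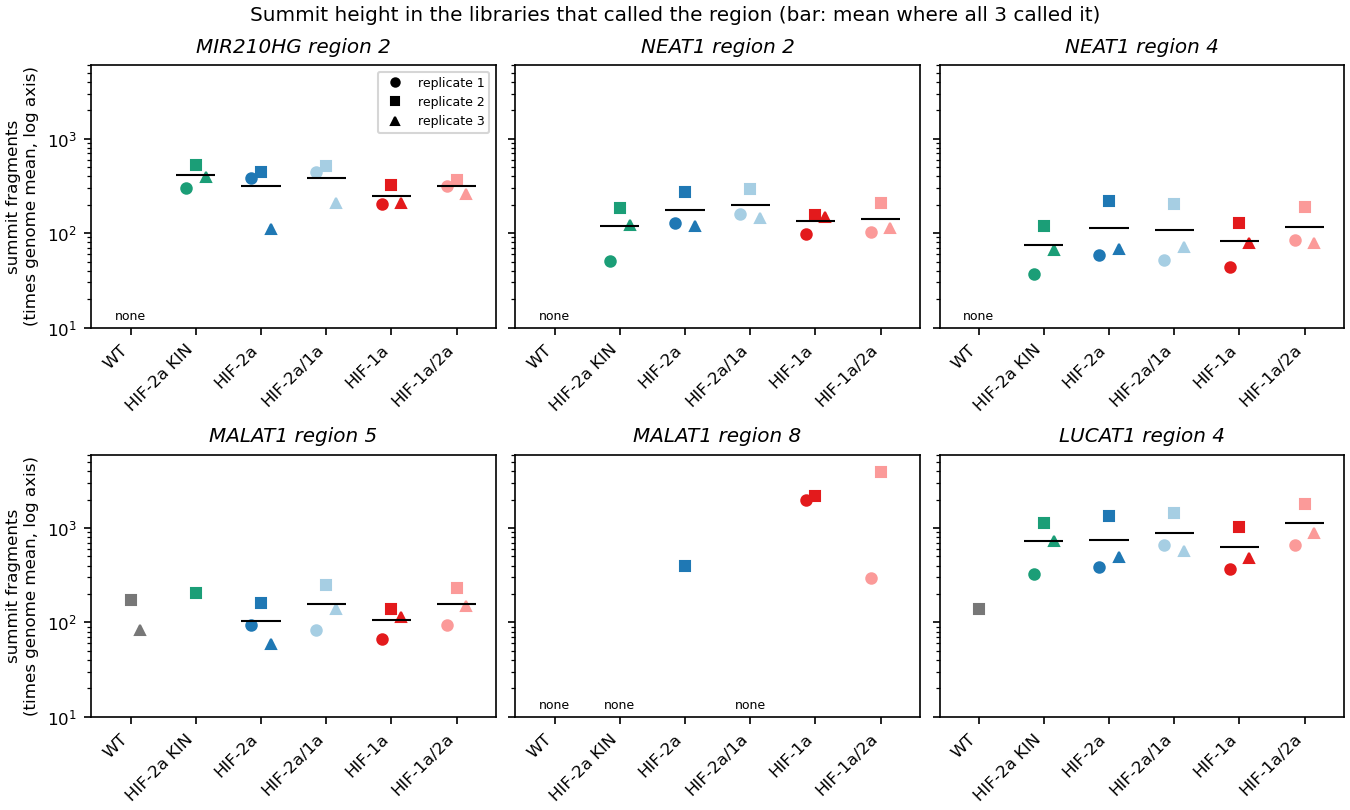
Summit fragments divided by the genome mean of each library (vertical log axis) by line, for 6 regions; symbols are replicates, bars are means where all 3 libraries called the region, and "none" marks a line without a call. MIR210HG region 2 lay between 111 and 531 times the genome mean and LUCAT1 region 4 between 325 and 1810 in the tagged lines, with overlapping lines. MALAT1 region 8 lay between 295 and 3880 in the 5 libraries that called it.

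MALAT1 had the most regions of the 6 genes, 10, and none was called in every tagged library. The most regular of them were called in WT as well. Region 4 (at -8204 bp from the start) and region 5 (at -5591 bp) were each called in 13 tagged libraries and in WT replicates 2 and 3, with an exact Fisher p of 0.442 for each (0.964 after adjustment over all regions). Region 5 reached 171 and 83.0 times the genome mean in these WT libraries, inside the range of 59.3 to 248 in the tagged ones, and at percentiles 69.1 and 86.7 against 36.6 to 88.4. The start of MALAT1 (region 7, summit 1 bp before it) was called in 8 tagged libraries and 1 WT library at a median percentile of 22.1. Like the region at the LUCAT1 start, and unlike that at MIR210HG, it was called in WT replicate 2.

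In a few libraries, peaks covered much of the body of MALAT1. Region 8 (chr11:65499045-65506093, exons of MALAT1 and of its antisense gene TALAM1) was called in 5 libraries: HIF-2a replicate 2, HIF-1a replicates 1 and 2, and HIF-1a/2a replicates 1 and 2. Its summits held 211, 811, 830, 121 and 1103 fragments in that order, or 394, 1980, 2160, 295 and 3880 times the genome mean. In both HIF-1a libraries this was the peak of rank 1 in the whole list, with a fold enrichment of 308 and 258; in the third HIF-1a replicate it was not called.

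All 5 of these peaks began within 0 to 42 bp of a single position, 1405 bp downstream of the GENCODE gene start, which is where 19 of 66 annotated MALAT1 transcripts begin. Peaks covered 64.0%, 71.3%, 74.9%, 26.5% and 72.9% of the gene body in these libraries and at most 10.0% in any other. By DBD, 1 of 6 libraries with the HIF-2α version and 4 of 6 with the HIF-1α version called it (exact Fisher p = 0.242, adjusted p = 1.0). By IDR the calls were 3 of 6 and 2 of 6 (exact Fisher p = 1.0). Peaks without strand cannot tell MALAT1 from TALAM1.

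NEAT1 had a comparable stretch in a single library. In HIF-1a replicate 1, 9 peaks covered 70.4% of the gene body, the longest of them 9527 bp, whereas coverage was at most 10.1% in every other library. The same library had the MALAT1 body peak at rank 1. The remaining MALAT1 regions were region 9, near the TALAM1 start (10 tagged and 1 WT libraries), regions 1, 2, 3 and 6 upstream (7, 2, 6 and 8 tagged libraries, no WT) and region 10 downstream of the gene (3 tagged, no WT).

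**Figure D3:**
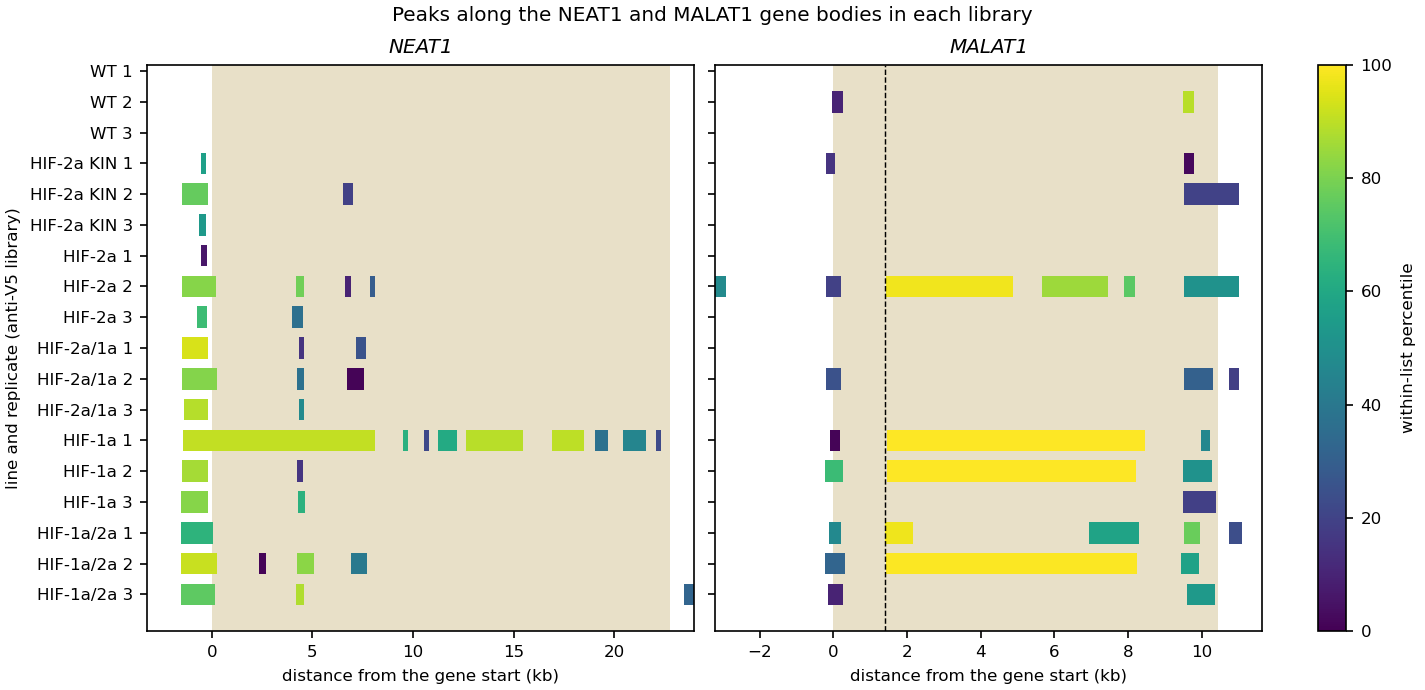
Peaks along NEAT1 and MALAT1 in each anti-V5 library (one line of the plot each), drawn to scale as distance from the gene start in kb and coloured by within-list percentile; shading is the gene body and the dashed line is the commonest MALAT1 transcript start, 1405 bp inside the gene. Peaks at the NEAT1 start recur in the tagged libraries, while peaks that begin at the dashed line appear in 5 libraries, from 768 to 7010 bp long, and the longest NEAT1 peak (9527 bp) is in HIF-1a replicate 1.

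HOTAIR and H19 were the least marked. Neither HOTAIR region lay at the gene: region 1, in a HOXC10 intron at -11447 bp from the start, was called in 5 tagged libraries (percentiles 47.5 to 70.9), and region 2, 264 bp from the start of HOXC9, in 2. All of these calls came from HIF-2a, HIF-2a/1a and HIF-1a libraries, and neither region was called in HIF-2a KIN, HIF-1a/2a or WT. By IDR, region 1 was called in 1 of 6 and 4 of 6 libraries (HIF-2α and HIF-1α IDR), with an exact Fisher p of 0.242 (1.0 after adjustment). At H19 no list held a summit in the gene or within 20 kb. The nearest summit lay 50776 bp away, in a region called in 13 tagged and 0 WT libraries. Since a list holds only peaks that passed the authors' threshold, this does not show that no signal was there.

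Across the series, 4.66% of the 25783 regions were called in all 15 tagged and no WT libraries, and 4.66% had an adjusted Fisher p under 0.05 for tagged against WT; these were the same 1201 regions, because no other pattern of calls passed. WT replicates 1 and 3 called 0.167% and 2.46% of all regions, so a lack of calls there was common. Of the 29 regions here, 3 passed: MIR210HG region 2 and NEAT1 regions 2 and 4 (exact Fisher p = 0.00123, adjusted p = 0.0263 for each). MIR210HG region 1 and LUCAT1 region 1, with 14 tagged and no WT calls, did not (exact Fisher p = 0.0049, adjusted p = 0.0657). Without HIF-2a KIN replicate 1 the former passed (adjusted Fisher p = 0.0235), and without HIF-1a/2a replicate 3 the latter did (0.0308). Each library left out was the only tagged one without the call, so these passes follow from the choice of library. With any WT library left out, no region of the series passed, since the smallest exact p of 15 against 2 libraries is too large: the 3 adjusted Fisher p-values were then 0.156, 0.118 and 0.156 without WT replicates 1, 2 and 3. With the replicate number as a block none of the 3 passed (adjusted exact permutation p = 0.0994 for each). Their pattern of calls already gives the smallest p of that test, so no region of the series could pass it. When longer lists were shortened to the 3984 peaks of the shortest tagged one, which left the lists of WT replicates 1 and 3 at their own 392 and 743 peaks, MIR210HG region 2 still passed and NEAT1 regions 2 and 4, called in 13 tagged libraries each, did not (adjusted Fisher p = 0.0986).

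In at least 1 WT library 14.3% of all regions were called, and 9 of the 29. All 9 were called in WT replicate 2, whose list held 9508 peaks against 392 and 743 in the other WT libraries. They comprised MALAT1 regions 4, 5, 7 and 9, LUCAT1 regions 4, 6, 7 and 8, and NEAT1 region 3. The part of this library's list length in these calls was not tested. Of all 18866 lncRNA genes, 5.7% had a region called in all 15 tagged libraries in the gene or within 20 kb, and of the 6 genes here MIR210HG, NEAT1 and LUCAT1 did. The 6 genes were picked with results known and the windows differ in length, so nothing particular to them is read from this.

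**Figure D4:**
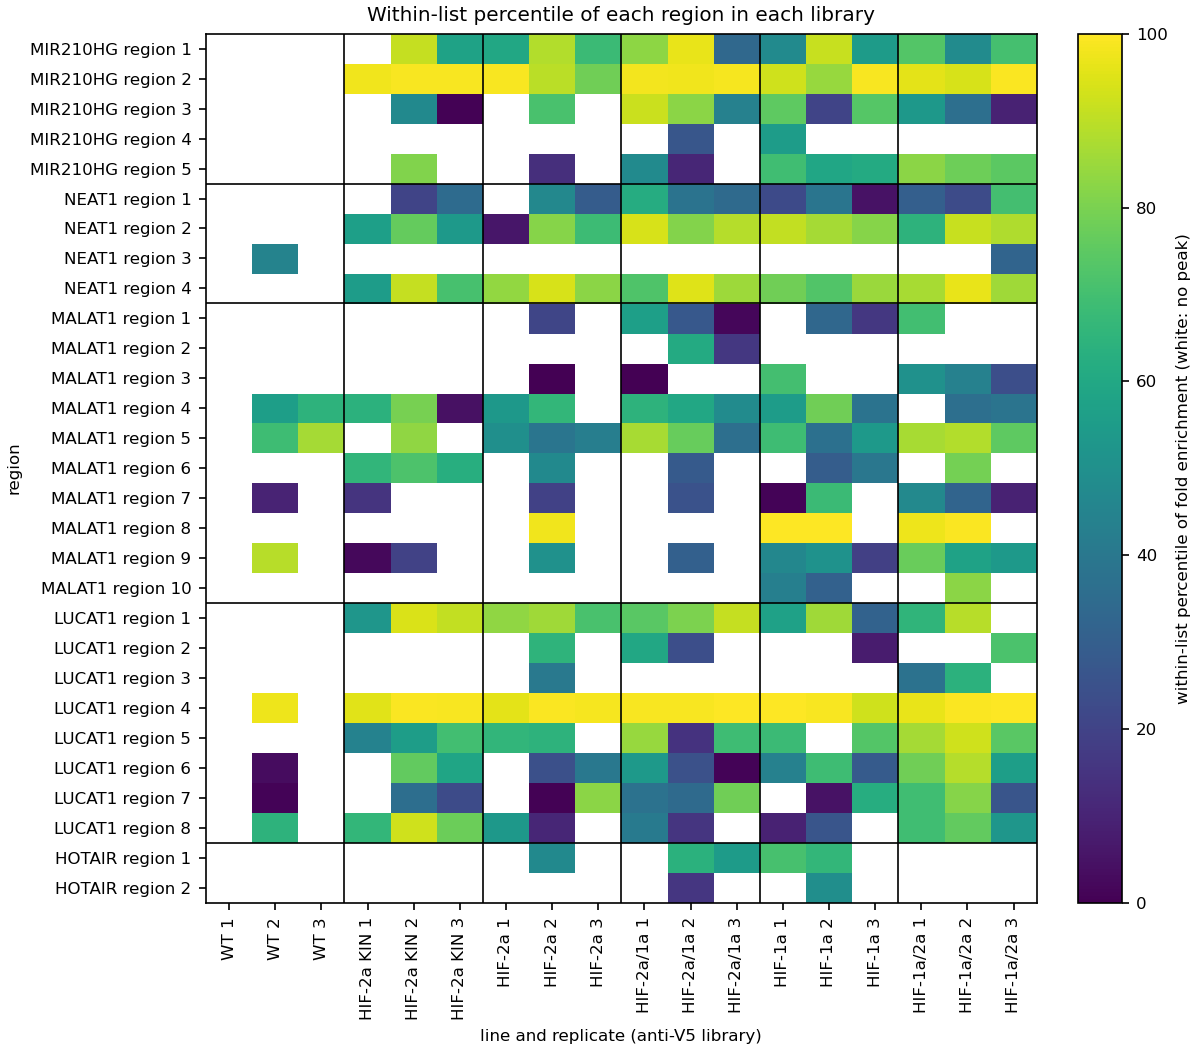
Within-list percentile of fold enrichment (colour, 0 to 100) for the 29 regions (vertical) in the 18 anti-V5 libraries (horizontal, grouped by line); white means no peak. LUCAT1 region 4 lies at percentile 92.7 or above and MIR210HG region 2 at 78.5 or above in every tagged list, MALAT1 region 8 is high in 5 libraries and absent from the rest, and WT replicate 2 is the WT library with the most calls.

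Counted per library, 17.7 ± 4.74 (SD, n = 15) of the 29 regions were called in tagged and 3.67 ± 4.73 (n = 3) in WT libraries, and no tagged library (10 to 24) overlapped with the WT ones (0, 9 and 2). Over all 25783 regions of the series, tagged libraries called 12.3% to 69.4% and the WT libraries 0.167%, 13.7% and 2.46%, against 34.5% to 82.8% and 0.0%, 31.0% and 6.9% of the 29, so the same contrast runs through the whole series. The difference of 14.1 had a two-sided exact permutation p of 0.00123, or 0.0049 after adjustment over the 4 tests of this kind. It was 16.0, 12.8 and 13.4 within replicates 1, 2 and 3. Regions were defined by calls in at least 2 of the 18 libraries, 15 of them tagged, so the definition itself favoured peaks of the tagged lines. The p-value is therefore not read as independent support for binding that depends on the tag. The 3 libraries of HIF-2a KIN called 11, 17 and 14 of the regions, those of HIF-2a 10, 24 and 10, and those of HIF-2a/1a 18, 24 and 16. HIF-1a libraries called 21, 22 and 18, and HIF-1a/2a libraries 20, 22 and 19. Replicate 2 had the most in each of the 6 lines.

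For the IDR, libraries with the HIF-2α version called 17.5 ± 6.06 (SD, n = 6) regions and those with the HIF-1α version 19.8 ± 2.99 (n = 6), a difference of -2.33 (exact permutation p = 0.44, adjusted p = 0.587). Within replicates it was -4.5, 0.0 and -2.5. Once lists were shortened to equal length and regions built anew, 17 regions at these genes were left among 8759 in the series. The order then turned. With the HIF-2α IDR 8.83 ± 1.17 regions (7 to 10) were called, against 6.0 ± 1.1 (4 to 7) with the HIF-1α IDR. The difference was 2.83 (exact permutation p = 0.015, adjusted p = 0.03). HIF-1a/2a libraries then called 10, 10 and 8 of the regions and HIF-2a libraries 9, 7 and 9, against 7, 6 and 7 in HIF-2a/1a and 6, 6 and 4 in HIF-1a. The 12 shortened lists of these 4 lines held 40.1% to 43.3% of the 8759 rebuilt regions each. The direction by IDR therefore depended on whether list length was held equal, and it is not read either way.

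**Figure D5:**
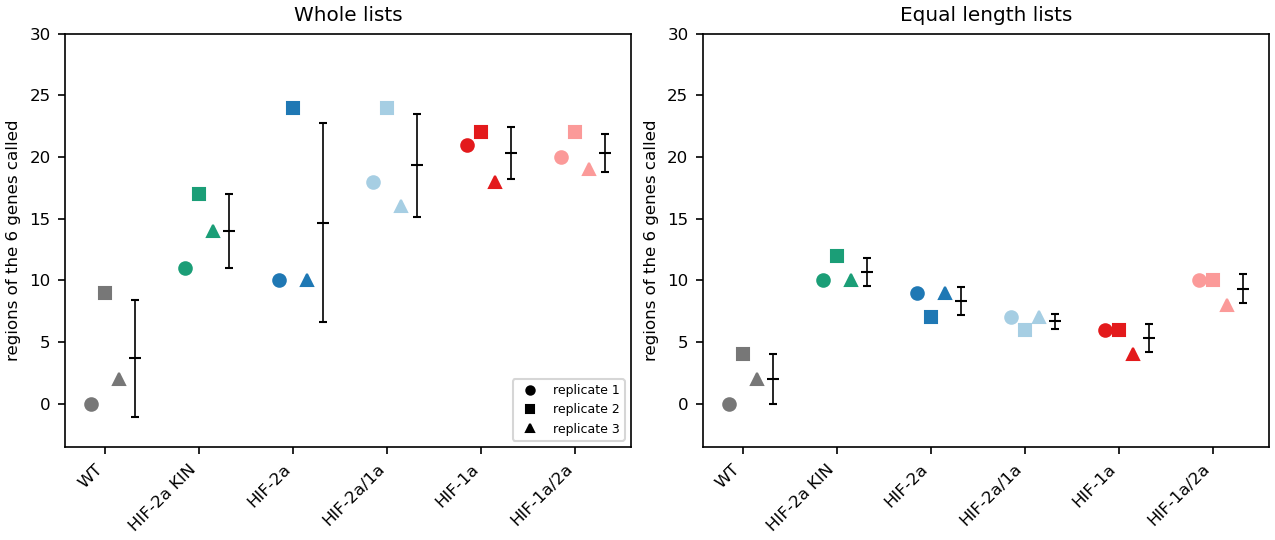
Number of regions at the 6 genes called by each library (vertical) in each line. On the left, counts are out of the 29 regions from whole lists. On the right, they are out of 17 regions rebuilt from lists shortened to 3984 peaks (the lists of WT replicates 1 and 3 are shorter). Symbols are replicates, and the bar to the right of each line is the mean with its SD (n = 3). In whole lists HIF-1a and HIF-1a/2a have the highest means (20.3 each), and in shortened lists HIF-2a KIN (10.7) and HIF-1a/2a (9.33) do.

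By DBD the counts were 17.0 ± 6.29 (SD, n = 6) for the HIF-2α version and 20.3 ± 1.63 (n = 6) for the HIF-1α version, a difference of -3.33 (exact permutation p = 0.27, adjusted p = 0.54). Within replicates the differences were -6.5, 2.0 and -5.5. Exogenous HIF-2a called 0.667 more regions on average than HIF-2a KIN (14.7 ± 8.08 against 14.0 ± 3.0, SD, n = 3 each; exact permutation p = 1.0, the smallest possible with this design being 0.1), and without HIF-2a replicate 2, which called 24, it called 4.0 fewer (a difference of -4.0).

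In these tests on peak lists, single regions did not differ by IDR or DBD after adjustment, here or anywhere in the series. The paper reports regions that respond to HIF-1α or to HIF-2α, found in the same experiment with another method (DiffBind) and threshold. That comparison was not repeated here. In the exact Fisher test of calls, 1.39% of all regions differed by IDR and 0.555% by DBD at an unadjusted p under 0.05, and none of the 29 did; the lowest exact Fisher p among them was 0.0606, at MALAT1 region 9 (2 of 6 libraries with the HIF-2α DBD against 6 of 6 with the HIF-1α DBD). For 1 region to pass the adjustment, 1117 would have to show complete separation of 6 libraries from 6, and 48 did so by IDR and 21 by DBD. The absence of calls is thus partly set by how few values such a test can take.

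Of the 29, 6 regions were called in all 12 libraries of the 4 exogenous lines, and their percentiles were compared directly: MIR210HG regions 1 and 2, NEAT1 regions 2 and 4, MALAT1 region 5 and LUCAT1 region 4. Of the 2720 regions of the series with this property, 12.7% differed by IDR and 10.3% by DBD (unadjusted exact permutation p under 0.05). None did after adjustment (lowest adjusted exact permutation p 0.209 and 0.216). For 1 region to pass, 272 would have to reach the smallest p of this test, and 65 did by IDR and 63 by DBD. The absence of calls is thus again partly set by the test. None of the 6 regions differed before adjustment. The difference with the lowest p was at NEAT1 region 2, with a mean percentile of 66.8 ± 31.7 (SD, n = 6) for the HIF-2α IDR and 87.3 ± 5.05 (n = 6) for the HIF-1α IDR, or -20.5 percentile points (exact permutation p = 0.105, adjusted p = 0.457). The difference was -8.94 without HIF-2a replicate 1. In that library the region stood at percentile 5.96, with a summit of 128 times the genome mean over a local background of 9.34 fragments. Mean summit heights by line were 174 times in HIF-2a and 141 times in HIF-1a/2a, against 198 times in HIF-2a/1a and 134 times in HIF-1a. The order of the lines by percentile was thus not that by height, and the part of local background was not tested.

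At NEAT1 region 4 the difference ran the other way, with 88.3 ± 5.63 for the HIF-2α IDR and 81.5 ± 8.6 for the HIF-1α IDR (6.74 points, exact permutation p = 0.185, n = 6 each, adjusted p = 0.566). At MIR210HG region 2 the means were 92.7 ± 7.8 and 95.2 ± 5.75, and at LUCAT1 region 4 they were 98.3 ± 1.68 and 98.2 ± 2.75, differences of -2.41 and 0.0826 points. Over all 2720 regions the median difference was -3.63 points by IDR and -1.33 by DBD. A p above the threshold does not show that the versions bound these regions alike.

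Another 25 lncRNA genes with a reported link to hypoxia or HIF were counted by the same rule, of which 24 were in the annotation. Of these, 19 had at least 1 region (66 in all), and TUG1, CDKN2B-AS1, MEG3, LINC-ROR and FTX had none. Genes with a region called in all 15 tagged libraries included WT1-AS, EGLN3-AS1 and LINC00511, and 4 of the 66 regions passed the adjusted Fisher test. The LINC00511 region was also called in all 3 WT libraries, and no region of that gene passed. At EGLN3-AS1, which neighbours the gene of the HIF prolyl hydroxylase EGLN3, the leading region lay 23656 bp from the start at a median percentile of 99.1. The leading region of the antisense gene HIF1A-AS1 lay 476 bp from its start but nearer to that of HIF1A (97 bp). It was called in 8 tagged libraries and 1 WT library at a median percentile of 27.3.

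For the leading regions called in all tagged libraries, the regions elsewhere with the most similar percentiles over the 15 tagged libraries were also sought, among 1718 or 1719 regions. MIR210HG region 2 was closest to a region 320 bp from the start of KDM4B, a histone demethylase gene (Spearman correlation 0.72), followed by regions whose nearest coding genes were ACVR1 (0.69) and PDE10A (0.66). NEAT1 region 4 was closest to regions nearest IWS1 (0.82), ERRFI1 (0.81) and LIMD1 (0.81), and LUCAT1 region 4 to regions nearest ARHGEF16 (0.87), SEMA5A (0.84) and SEPTIN9 (0.83). These are descriptions over 15 libraries that share list lengths and depths, and nothing is inferred from them about shared control.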

How the data were processed

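Binding of V5-tagged HIF-α was measured by Cut&Run in 36 libraries (18 anti-V5, 18 IgG) of 6 786-O lines. Per the study's methods and the submitters' processing notes, the authors aligned reads to hg38 with Bowtie2 2.3.4.1, kept fragments of 10 to 700 bp, called peaks with MACS2 for each anti-V5 library, with its matched IgG library as control (q of 0.01, gaps up to 400 bp joined, duplicates kept), and removed blacklisted regions with bedtools 2.28.0. SAMtools 1.8 and deepTools 3.5.1 are also named. The deposited files are 18 peak lists. They give, per the file headers' standard order, the fold enrichment (a ratio) at the summit, its −log10 p and −log10 q, and a display score and positions made by the authors; no coverage was used here.

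Groups came from the sample titles. Regions and gene windows (GENCODE 44, hg38) were built as described in the report. Calls (tagged against WT, IDR, DBD) were compared by a two-sided exact Fisher test and percentiles by a two-sided exact permutation test (400 relabellings within the other domain), each with Benjamini-Hochberg adjustment over all regions; counts per library were permuted likewise and adjusted over 4 tests. Summit fragments and depth were solved from fold and p-value. Regions were named for all 6 genes, with values per library for the leading region of each gene and counts or ranges for the rest. Python 3.11.15, NumPy 2.4.6, SciPy 1.17.1 and pandas 2.3.3 were used, and the procedure was tested on simulated data. Precision is limited by 3 libraries per line. The members and the lists were chosen with earlier results of these data known. Alternatives were other list lengths, thresholds, flanks, region rules, rank orders, annotations and left-out libraries. Some genes near the regions or on the comparison list are not reported here.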

Additional observations from a re-analysis of the deposited data

Results flagged for a closer look

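At MALAT1 region 5, the region upstream of MALAT1 with an AP-1 motif, the effect of the IDR on the within-list percentile differed with the DBD. With the HIF-2α DBD the HIF-2α IDR libraries stood lower than the HIF-1α IDR libraries (a difference of -23.1 points, 3 against 3 libraries), and with the HIF-1α DBD they stood higher (30.3 points). The difference between these effects was -53.4 points, with an exact permutation p of 0.025 over 12 libraries, which was 0.978 after adjustment over all regions tested. HIF-2a libraries stood at percentiles 49.7, 38.9 and 42.6 and HIF-1a/2a libraries at 86.8, 88.4 and 75.3. HIF-2a/1a (86.9, 76.9 and 36.6) and HIF-1a (68.8, 36.9 and 53.8) overlapped with each other. The region was also called in WT replicates 2 and 3, at percentiles 69.1 and 86.7.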

How the results depend on the processing

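Of 885 values recomputed under the alternatives, 813 kept their direction and their side of the threshold, or stayed close to the reported count. Equal list length (3984 peaks, with 2 shorter WT lists) left 17 rebuilt regions at these genes and moved the most. The differences in counts per library became 2.83 (IDR), 0.167 (DBD) and -2.33 (HIF-2a minus KIN), with reversed signs. With equal lists 1 region passed tagged against WT. MALAT1 regions 4 and 5 and LUCAT1 region 8 were then called in 3, 7 and 4 tagged libraries, a smaller share than in WT, and the percentile differences of MIR210HG region 2 became 0.665 (IDR) and 7.61 (DBD). With a 5 kb flank the IDR difference was 0.333. No region (0) passed tagged against WT when regions needed 1 library (adjusted exact Fisher p = 0.0625, with 61215 regions tested). Chained summits gave NEAT1 region 2 in 14 tagged libraries (adjusted Fisher p = 0.074).

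Without single libraries, tagged minus WT ranged from 12.2 to 16.7 regions, the IDR difference from -4.67 to -0.583, the DBD difference from -5.67 to -2.17, HIF-2a minus KIN from -4.0 to 3.0 (-0.833 without KIN replicate 1), and the number passing from 0 to 4. MALAT1 regions 4 and 5 were called in 12 to 13 tagged libraries each, a smaller share than in WT without WT replicate 1. Percentile differences changed sign within -9.09 to 6.96 (MIR210HG region 1, IDR), -4.87 to 0.227 and -3.07 to 2.03 (MIR210HG region 2, IDR and DBD), -1.45 to 4.14 (NEAT1 region 4, DBD), -3.93 to 8.63 (MALAT1 region 5, IDR), -1.02 to 0.726 and -0.304 to 1.45 (LUCAT1 region 4, IDR and DBD). None of these had passed the test.

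At a −log10 q of at least 5 the IDR differences of MIR210HG region 1 and LUCAT1 region 4 were -1.78 and -0.0146. Ranked by −log10 q, they were -0.701 and -0.268, that of MALAT1 region 5 was -0.458, and LUCAT1 region 4 differed by -0.32 by DBD. On log2 summit fragments over the genome mean, an alternative chosen after seeing the data, MIR210HG region 1 differed by -0.253 (IDR) and -0.00511 (DBD), MALAT1 region 5 by -0.018 (IDR), and by DBD MIR210HG region 2 by 0.188, NEAT1 region 2 by 0.392 and LUCAT1 region 4 by -0.08. The causes of these changes were not tested.

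Replicate numbers were not taken to pair the libraries in the main tests, as the sample titles do not say so. The submitters' library numbers do run in sequence within each replicate number across the 6 lines. Replicate 2 also had the longest list in each line. Whether libraries with the same number were prepared together is not stated and was not tested. Over 45 pairs with the same number, the correlation of deviations from the line means ran from -0.0676 to 0.145, and 2 were over 0.1. In 53 of 90 comparisons a library correlated best with its own number out of 3. With the replicate number as a block, 0 regions passed tagged against WT (adjusted exact permutation p = 0.0994 for the 3 that had). These 3 had the smallest p that the blocked test can give, so it could pass no region and does not weigh on them. The count difference of 14.1 had an adjusted exact permutation p of 0.0185 in the blocked test, and no other call changed. Depth, at 0.241 to 0.625 fragments per base, limits weak peaks: the lists hold no value for a region that was not called.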
